A study of Mus musculus with 7 samples.

Results

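The collagen and laminin chains of the mouse retina were taken as every row of the count table whose symbol is a collagen chain (Col, a number, a, a number) or a laminin chain (Lama, Lamb or Lamc and a number). This gave 55 of the 25655 genes in the table. They were sorted by the structure their protein joins into 19 basement membrane chains (collagen IV, the multiplexins and the laminins), 11 fibrillar collagen chains and 25 other collagen chains.

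Collagens are built from chains wound into a triple helix, and each type uses its own set of partner chains. Collagen IV and the laminins form networks that, joined by nidogen and heparan sulfate proteoglycans, make up basement membranes. In the eye these sheets include the inner limiting membrane between retina and vitreous, the sheaths of the retinal vessels and the membrane of Bruch under the pigment epithelium. Fibrillar collagens make up the fibers of sclera and vitreous. The vitreous fibril is known for collagens II, IX and V/XI.

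The libraries hold RNA of whole retina from wildtype C57BL/6 mice, collected 2 days after the optic nerve was crushed, which damages the axons that retinal ganglion cells send to the brain. Each retina had received AAV2, an adeno-associated viral vector, which carried either a control construct under the CMV promoter (control AAV2) or a construct for overexpression of Tppp3, a tubulin polymerization-promoting protein (Tppp3 AAV2). Every group was crushed and every group received a vector, so no value describes an uninjured or untreated retina. The sources used here do not give age, sex or the promoter of the Tppp3 construct. The labels assign 4 samples to control AAV2 and 3 to Tppp3 AAV2, while the treatment protocol gives the opposite numbers. The sample labels were followed, and 3 libraries of each group had a matching column. A further column, named as a Tppp3 library, matched no sample label and was not used, and the fourth sample labelled control was not analysed here. Separate animals are not stated for each library, so p-values measure only the spread between these libraries, which may be technical.

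Totals were 10961443 to 16218074 gene counts in the controls and 19961359 to 21843892 with Tppp3 AAV2. The shallowest Tppp3 library was thus above the deepest control. Tppp3 itself was at 18.7, 22.2 and 28.0 CPM (counts scaled to the same effective library size by TMM) in control replicates 1, 2 and 3, and at 53.7, 36.5 and 41.8 CPM in Tppp3 replicates 1, 2 and 3, with an adjusted p of 0.639 in edgeR's quasi-likelihood test. Reads of the native gene and of the vector were not separated. The 10 rod photoreceptor markers summed to between 52447 and 67568 CPM in the 6 libraries, which fits the labelled tissue. Markers of the pigment epithelium differed between libraries of the same group. Their 14 genes summed to 605, 341 and 353 CPM in control replicates 1, 2 and 3, and to 582, 392 and 627 CPM in Tppp3 replicates 1, 2 and 3. Most of each sum was Rlbp1, which is also a marker of Müller glia. It was at 372, 279 and 293 CPM in the controls and at 337, 318 and 393 CPM with Tppp3 AAV2. In proportion, Rpe65 and Rgr, given below, differed by more between libraries, and Rrh by less.

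Across the whole set, the level of the chains differed little between control and Tppp3 AAV2. Basement membrane chains summed to 468, 377 and 395 CPM in control replicates 1, 2 and 3, and to 441, 413 and 421 CPM in Tppp3 replicates 1, 2 and 3. Fibrillar chains summed to 238, 229.9 and 196 CPM in the controls and to 204, 243 and 223 CPM with Tppp3 AAV2. The other collagen chains summed to 534, 487 and 443 CPM in the controls and to 508, 487 and 528 CPM with Tppp3 AAV2. The groups overlapped in all 3 classes. The means were 414 ± 48.0 and 425 ± 14.7 CPM for basement membrane chains, 221 ± 22.5 and 223 ± 19.7 CPM for fibrillar chains and 488 ± 45.2 and 508 ± 20.7 CPM for the others (SD, n = 3 per group). Each difference was smaller than the SD of either group, and no test was made on these sums.

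**Figure D1:**
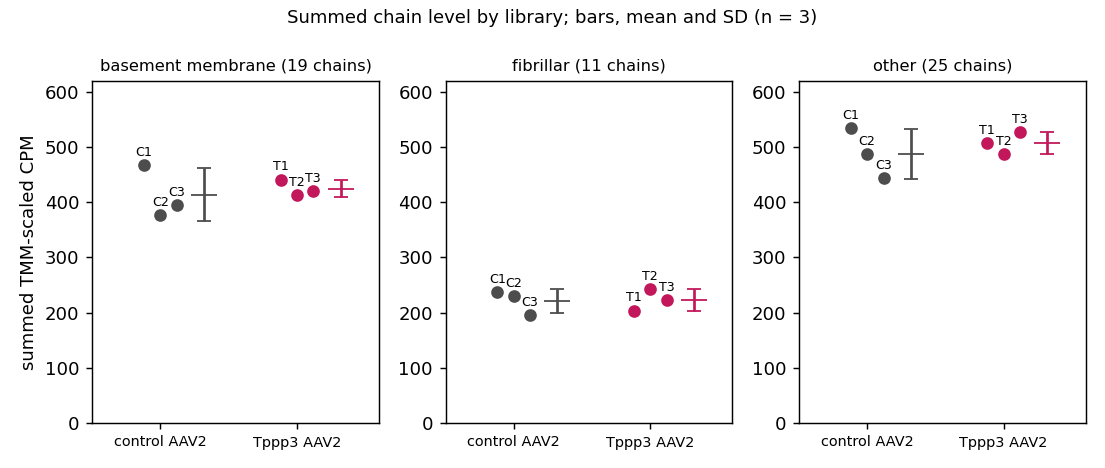
Summed TMM-scaled CPM of the basement membrane (19), fibrillar (11) and other (25) chains, with 1 point per library (C, control AAV2; T, Tppp3 AAV2) and bars for the mean and SD of 3 libraries. In each panel the points of the 2 groups overlap, as in the basement membrane panel, where the controls span 377 to 468 and the Tppp3 libraries 413 to 441.

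Of the 55 chains, 51 had enough counts to be tested, and 0 passed an adjusted p of 0.05 in either direction in edgeR's quasi-likelihood test. Among all 14750 genes tested, 0.0136% were called lower (2 genes) and 0% higher. DESeq2's Wald test and limma's voom with quality weights also called 0 chains. At an unadjusted p under 0.05, 1 chain was higher, where the share of all genes was 3.67%, and 6 chains were lower (11.8% of the chains), where the share of all genes was 3.55%. The chain with a higher value was Col23a1, and those with lower values included Lamb3, Col4a1, Col5a2, Col19a1 and Col20a1. The log2 fold change was positive for 26 chains and negative for 25. Its median was 0.01 over the chains and 0.0030 over all genes tested.

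These unadjusted counts depended on some of the libraries. Without control replicate 1 they were 7 chains higher and 1 lower, and without Tppp3 replicate 1 they were 2 higher and 3 lower. Without control replicate 2 or 3, or without Tppp3 replicate 2 or 3, they were 1 higher and 4 to 6 lower. DESeq2's Wald test gave 2 higher and 3 lower. The 4 chains that were not tested were Col10a1, Col14a1, Col28a1 and Col6a5, each with 34 to 64 counts over the 6 libraries. Their CPM lay between 0.177 and 1.14 in single libraries.

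**Figure D2:**
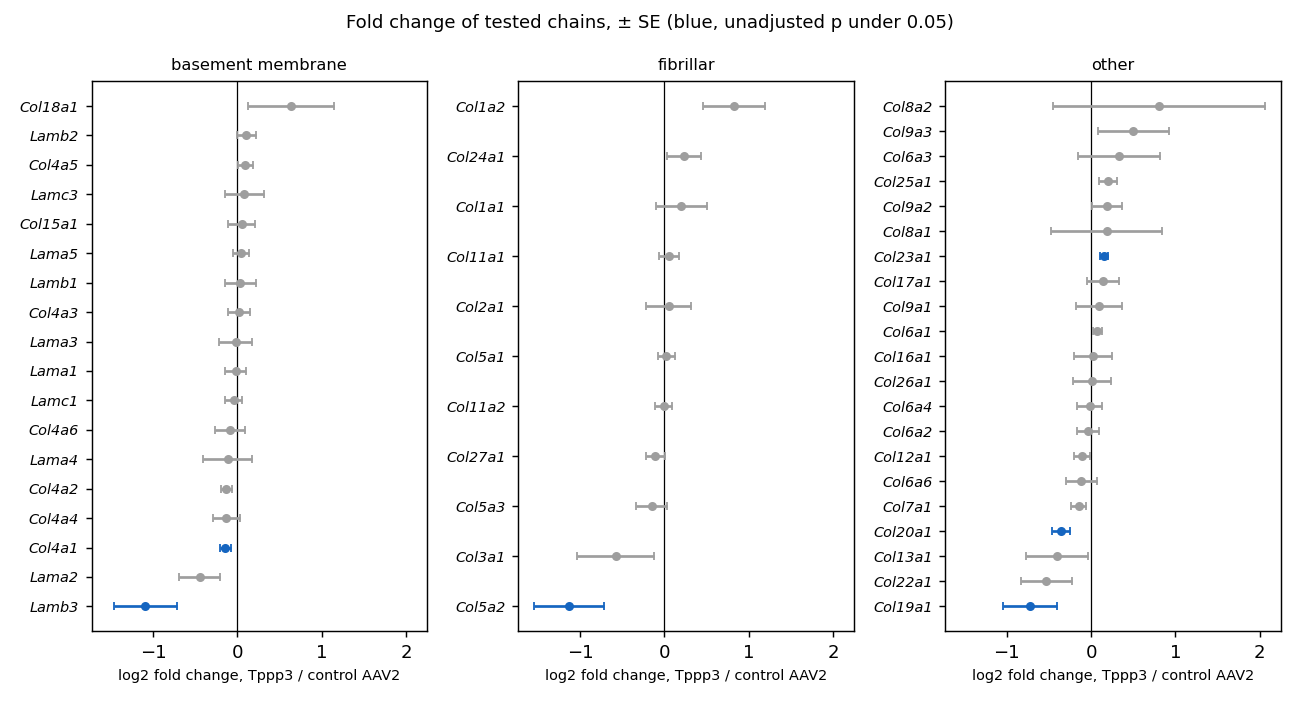
Log2 fold change of Tppp3 over control AAV2 for tested chains, in 3 panels by class, with bars for the SE of edgeR's fit and blue points for an unadjusted p under 0.05. Most points lie near 0, while Col5a2 and Lamb3 stand lowest at -1.13 and -1.09 and Col1a2 and Col8a2 highest at 0.83 and 0.81. Both the lowest and the highest have wide bars.

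Collagen IV, the network-forming collagen of every basement membrane, was led by its α1 and α2 chains. Col4a1 was at 66.7, 61.3 and 65.8 CPM in control replicates 1, 2 and 3, and at 58.6, 61.4 and 55.4 CPM in Tppp3 replicates 1, 2 and 3. Control replicate 2 and Tppp3 replicate 2 were almost level, so the groups overlapped by a narrow margin. The means were 64.6 ± 2.88 and 58.5 ± 2.99 CPM (SD, n = 3 per group), a log2 fold change of -0.14 ± 0.064 (SE) with an unadjusted p of 0.0463 and an adjusted p of 0.685 in edgeR's test.

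Col4a2, whose product joins that of Col4a1 in the same helix, was at 62.5, 62.8 and 65.3 CPM in the controls and at 62.7, 53.9 and 57.6 CPM with Tppp3 AAV2. Tppp3 replicate 1 lay within the control range and the other two below it (log2 fold change -0.13 ± 0.067, SE; edgeR adjusted p = 0.730). Per kb of exon, the 2 genes stood at the same level, with a Col4a2 to Col4a1 ratio between 0.900 and 1.097 in the 6 libraries. In the reference annotation they start head to head and their first exons overlap, so a few reads at the start cannot be assigned to one of them without strand.

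The remaining collagen IV genes were lower in level and showed no shift beyond the spread. Col4a3, Col4a4 and Col4a5 encode the chains of the network best known from the kidney filter, where their loss causes Alport syndrome. Col4a3 was at 10.9, 13.3 and 14.01 CPM in the controls and at 12.2, 12.1 and 14.4 CPM with Tppp3 AAV2 (log2 fold change 0.02, edgeR adjusted p = 0.987). Col4a4 was at 11.9, 14.7 and 12.7 CPM in the controls and at 11.7, 14.7 and 9.54 CPM with Tppp3 AAV2 (-0.13, adjusted p = 0.903 in the same test). Tppp3 replicate 3 was the lowest library for Col4a4 and the highest for Col4a3.

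Col4a5 was at 27.8, 23.9 and 24.0 CPM in the controls and at 26.3, 27.0 and 27.6 CPM with Tppp3 AAV2, a log2 fold change of 0.10 ± 0.085 (SE) with an edgeR adjusted p of 0.845. Control replicate 1 was the highest of the 6 libraries, so the groups overlapped. Per kb of exon, Col4a5 exceeded Col4a3 by 2.70 ± 0.411 times and Col4a6 by 3.49 ± 0.494 times (SD over 6 libraries), while Col4a3 over Col4a4 was 1.24 ± 0.291. Col4a6 spanned 6.15 to 9.37 CPM over the 6 libraries. Summed over the 6 genes, collagen IV was at 189, 182 and 190.2 CPM in the controls and at 179, 177 and 172 CPM with Tppp3 AAV2. The sums of the groups did not overlap, while the groups overlapped for each of the 6 genes taken singly. Most of each sum was Col4a1 and Col4a2. Sums of the 4 transmembrane collagens were also without overlap, in the other direction. They were at 126, 121 and 117 CPM in the controls and at 135, 137 and 133 CPM with Tppp3 AAV2, and most of each was Col23a1. The sums of the other chain types overlapped. The 16 basement membrane genes outside the chains summed higher without overlap, at 696, 669 and 668 against 714, 722 and 708 CPM. Taken singly, 0 of these 16 genes had groups without overlap, and 10 log2 fold changes were positive and 6 negative. The largest was that of Fbln1, at 52.2, 1.72 and 1.99 CPM in the controls and at 60.1, 27.2 and 58.2 CPM with Tppp3 AAV2. Among all single genes tested, 6.92% were higher and 7.02% lower without overlap. No test was made on any of these sums.

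Endothelial and mural cells make much of the collagen IV in vessels. Over the whole endothelial list, 0 of 10 genes had an unadjusted p under 0.05, and the median log2 fold change was -0.07. Of the 10, 6 were negative, with Pecam1 lowest at -0.30, and 4 positive. The summed level was 416 to 441 CPM in the controls and 373 to 536 CPM with Tppp3 AAV2. Kdr held the largest part of it, at 201 to 276 and 186 to 334 CPM. The 10 pericyte and smooth muscle genes also had 0 members at an unadjusted p under 0.05. Their median was -0.07, with sums of 123 to 133 CPM and 123 to 140 CPM. None of the defining endothelial markers was at 0. Their part in the collagen IV values was not tested. In whole retina, fewer cells of a type and less RNA per cell cannot be told apart.

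Laminins are heterotrimers of an α, a β and a γ chain that start the assembly of basement membranes. The chains present at the highest level per kb of exon were Lamc1 (5.80 ± 0.572), Lamb2 (5.35 ± 0.627), Lamb1 (3.86 ± 0.688) and Lama5 (3.34 ± 0.290 CPM per kb; SD over 6 libraries). The ranges of Lamc1 and Lamb2 overlapped, as did those of Lamb1 and Lama5. Lama5 was above Lama1 in every library, by 2.18 ± 0.328 times per kb, and Lamb2 was above Lamb1 in every library, by 1.42 ± 0.312 times.

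Lamc1, the γ chain shared by most laminins, was at 49.1, 39.6 and 46.0 CPM in the controls and at 48.5, 43.0 and 39.0 CPM with Tppp3 AAV2 (log2 fold change -0.04 ± 0.099, SE; edgeR adjusted p = 0.955). The groups covered almost the same range. Lama5 spanned 35.3 to 43.9 CPM, Lamb2 26.5 to 34.4 CPM, Lamb1 18.0 to 28.1 CPM and Lama1 12.6 to 16.8 CPM over the 6 libraries, with no unadjusted p under 0.05. Lama2 and Lama4, chains of muscle and vessel laminins, spanned 2.61 to 5.06 and 2.28 to 4.95 CPM, and Lamc3, a chain known from retina and brain, spanned 2.62 to 4.24 CPM. These also had no unadjusted p under 0.05.

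The epithelial laminin chains Lamb3 and Lama3, known from the anchorage of epithelia through the hemidesmosome integrin α6β4, differed from each other. Lamb3, a β chain, was at 3.01, 2.21 and 1.45 CPM in control replicates 1, 2 and 3, and at 1.07, 0.722 and 1.33 CPM in Tppp3 replicates 1, 2 and 3. All 3 Tppp3 libraries were below all 3 controls, with the closest pair at 1.45 and 1.33. The means were 2.22 ± 0.780 and 1.04 ± 0.305 CPM (SD, n = 3 per group). The log2 fold change was -1.09 ± 0.374 (SE), with an unadjusted p of 0.0137 and an adjusted p of 0.648 in edgeR's test. The raw counts behind it were few, at 34, 36 and 16 in the controls and 21, 16 and 28 with Tppp3 AAV2, where libraries were deeper.

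Lama3, an α chain, was at 6.63, 4.86 and 5.60 CPM in the controls and at 6.40, 4.60 and 5.79 CPM with Tppp3 AAV2, so the groups covered nearly the same range (-0.02 ± 0.194, SE; edgeR adjusted p = 0.990). Per kb of exon, the ratio of Lamb3 to Lama3 averaged 0.816 ± 0.238 in controls and 0.386 ± 0.0826 in Tppp3 libraries (SD, n = 3 per group), and no test was made on the ratio.

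Among the 6 tested partners of the hemidesmosome, 2 were lower at an unadjusted p under 0.05 (33.3%, where the share of all genes was 3.55%) and 0 were higher (3.67% of all genes). The median log2 fold change was -0.11. This list was chosen with earlier results of these data known and holds Itgb4, which ranked 3 by p among all genes tested. Its shares thus cannot show whether the partners differed as a set. Itgb4, the integrin β4 chain of a laminin receptor, was at 12.02, 11.6 and 12.7 CPM in the controls and at 6.61, 5.68 and 6.36 CPM with Tppp3 AAV2. The groups were apart by more than the range within either of them. It stood at a log2 fold change of -0.96, and edgeR's test gave an adjusted p of 0.0650. This call depended on the filter and the tool, since edgeR's test with no filter on low counts gave an adjusted p of 0.0265 and DESeq2's Wald test one of 0.00107, and over all alternatives it ranged from 0.00107 to 0.766. Krt14, an epithelial keratin, was at 13.7, 10.02 and 14.2 CPM in the controls and at 5.64, 6.18 and 9.83 CPM with Tppp3 AAV2 (-0.80, adjusted p = 0.639 in edgeR's test). Itga6, the partner of Itgb4, spanned 9.76 to 12.4 CPM in the controls and 8.26 to 11.6 CPM with Tppp3 AAV2. Col17a1, a transmembrane collagen of the hemidesmosome, spanned 4.12 to 5.30 and 4.46 to 5.64 CPM. The other tested partners, Cd151, Plec and Dst, had overlapping groups and log2 fold changes of -0.05, -0.01 and 0.0020. Krt5, the usual keratin partner of Krt14, had too few counts to be tested. It was at 0, 0.123 and 0 CPM in the controls and at 0.356, 0.0451 and 1.80 CPM with Tppp3 AAV2.

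**Figure D3:**
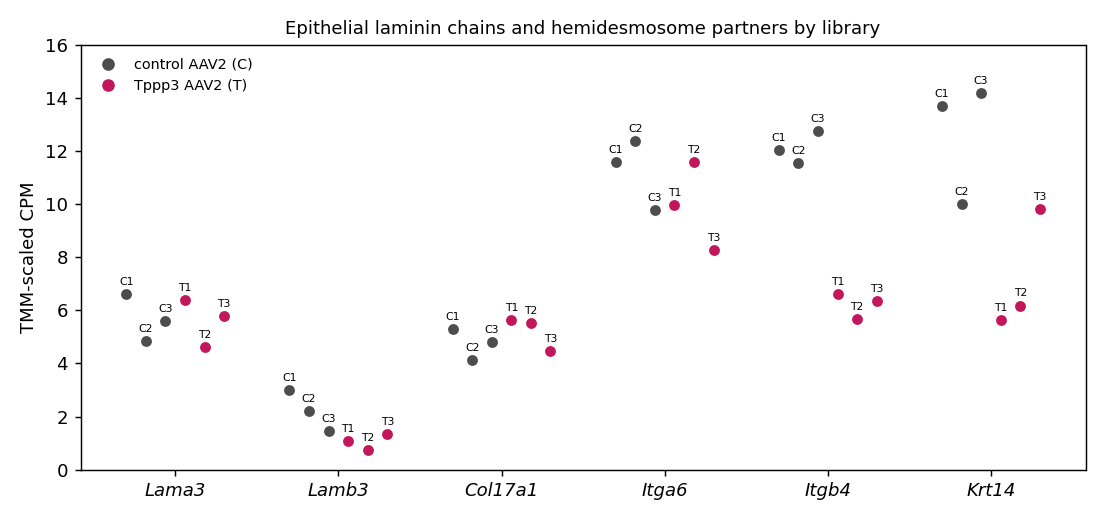
TMM-scaled CPM in each library (C, control AAV2; T, Tppp3 AAV2; replicates 1 to 3) for the laminin chains Lama3 and Lamb3 and for Col17a1, Itga6, Itgb4 and Krt14. The Itgb4 points form separate groups at 11.6 to 12.7 and 5.68 to 6.61 CPM, Lamb3 is lower in all Tppp3 libraries, and the Lama3 points of the groups are mixed.

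The multiplexins are basement membrane collagens with interrupted helices. Col18a1, whose product carries the endostatin fragment and is known from the border of retina and vitreous, was at 78.7, 27.2 and 31.99 CPM in control replicates 1, 2 and 3, and at 80.6, 52.8 and 78.9 CPM in Tppp3 replicates 1, 2 and 3. Control replicate 1 stood with Tppp3 replicates 1 and 3, and control replicates 2 and 3 were lowest. The means of 46.0 ± 28.4 and 70.7 ± 15.6 CPM (SD, n = 3 per group) gave a log2 fold change of 0.63 ± 0.509 (SE), with an edgeR adjusted p of 0.844. Col15a1, the other multiplexin, spanned only 5.06 to 5.91 CPM over the 6 libraries.

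The network-forming chains Col8a1 and Col8a2, known from the endothelial layer of the cornea and from the membrane of Bruch, were split between libraries in a like way. They and Col9a3 are named here after their values were seen. Col8a2 was at 10.2, 1.41 and 1.36 CPM in the controls and at 11.1, 1.13 and 9.92 CPM with Tppp3 AAV2. The high libraries were control replicate 1 and Tppp3 replicates 1 and 3, and the groups overlapped fully (log2 fold change 0.81 ± 1.26, SE; edgeR adjusted p = 0.929). Col8a1 was at 20.5, 6.58 and 7.77 CPM in the controls and at 16.7, 6.27 and 16.4 CPM with Tppp3 AAV2, high in the same libraries (0.19 ± 0.658, SE; edgeR adjusted p = 0.975). Col9a3, a chain of the cartilage and vitreous collagen IX, was at 19.3, 10.7 and 6.60 CPM in the controls and at 20.2, 13.9 and 17.6 CPM with Tppp3 AAV2 (0.50 ± 0.416, SE; edgeR adjusted p = 0.845). Part of the Col9a3 exons, 7.68%, overlaps its neighbor Tcfl5 in the reference annotation.

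Of the 14 markers of the pigment epithelium, 10 were higher in each of those same 3 libraries than in any of the others. Rpe65, the isomerase of the visual cycle, was at 19.4, 1.23 and 1.36 CPM in the controls and at 14.2, 2.12 and 17.0 CPM with Tppp3 AAV2. Rgr, an opsin of the pigment epithelium and Müller glia, was at 69.0, 11.99 and 9.67 CPM in the controls and at 80.7, 9.70 and 74.7 CPM with Tppp3 AAV2. The 4 markers without this split were Best1, Slc45a2, Mlana and Rrh. Rrh, an opsin-like protein, was at 15.6, 14.8 and 12.02 CPM in the controls and at 13.8, 14.2 and 15.3 CPM with Tppp3 AAV2, and Best1, a chloride channel, spanned 0.142 to 0.633 CPM with control replicate 3 highest. Of the 14 marker genes 12 were tested, all 12 with a positive log2 fold change and 0 with an unadjusted p under 0.05. Of the 14, only Slc45a2 was listed at 0 in a library, control replicate 3, and Best1 and Mlana were too low to be tested. With the mean level of these markers as a covariate in edgeR's fit, the log2 fold change was -0.40 ± 0.325 (SE) for Col8a2, -0.49 ± 0.166 for Col8a1, 0.21 ± 0.134 for Col18a1 and 0.13 ± 0.166 for Col9a3, and no chain passed (adjusted p of 0.789, 0.541, 0.736 and 0.871). The signs for Col8a1 and Col8a2 were thus opposite to those without the covariate. With the fibroblast markers as covariate all 4 chains had a negative log2 fold change, from -1.68 for Col8a2 to -0.30 for Col9a3. No chain passed there either (edgeR adjusted p of 0.901 for Col8a2, 0.841 for Col8a1, 0.841 for Col18a1 and 0.938 for Col9a3). Of the 6 tested fibroblast markers, 5 had a positive log2 fold change, up to 1.41, and 1 a negative one. This covariate thus cannot be fully told apart from the groups.

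**Figure D4:**
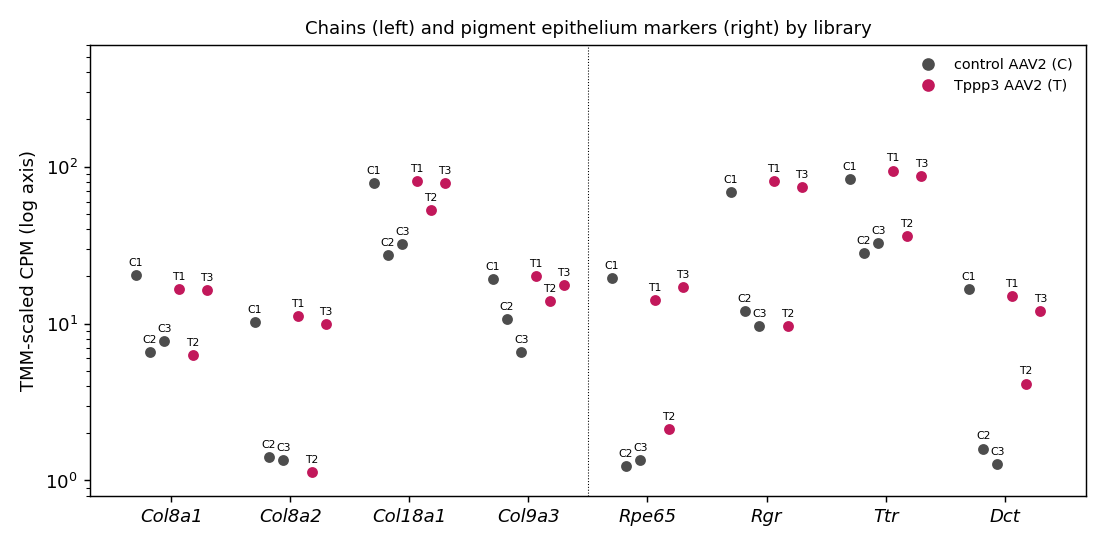
TMM-scaled CPM on a log axis in each library (C, control AAV2; T, Tppp3 AAV2; replicates 1 to 3) for the chains Col8a1, Col8a2, Col18a1 and Col9a3, left of the dotted line, and the pigment epithelium markers Rpe65, Rgr, Ttr and Dct, right of it. Control replicate 1 and Tppp3 replicates 1 and 3 stand highest for every gene shown, for example at 9.92 to 11.1 CPM for Col8a2 against 1.13 to 1.41 CPM in the other libraries.

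The 250 bases before the annotated starts of Col8a1, Col8a2 and Col18a1 are shown for reference. They are from RefSeq on GRCm38.p6, 5′ to 3′ on the strand of the gene. These chains were highest in the same libraries but differed in Tppp3 replicate 2. There Col18a1 was above control replicates 2 and 3, while Col8a1 and Col8a2 were at their lowest. Capitals mark the GC box GGGCGG on either strand, with overlapping matches joined. Col18a1 has more than one promoter, and counts per gene do not separate them.
Col8a1 (chr16:57754738-57754987, minus strand): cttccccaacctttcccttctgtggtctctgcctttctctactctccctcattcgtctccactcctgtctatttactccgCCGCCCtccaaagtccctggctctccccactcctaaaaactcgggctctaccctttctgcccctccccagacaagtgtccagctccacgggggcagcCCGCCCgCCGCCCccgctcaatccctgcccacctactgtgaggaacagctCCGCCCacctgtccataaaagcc
Col8a2 (chr4:126286544-126286793, plus strand): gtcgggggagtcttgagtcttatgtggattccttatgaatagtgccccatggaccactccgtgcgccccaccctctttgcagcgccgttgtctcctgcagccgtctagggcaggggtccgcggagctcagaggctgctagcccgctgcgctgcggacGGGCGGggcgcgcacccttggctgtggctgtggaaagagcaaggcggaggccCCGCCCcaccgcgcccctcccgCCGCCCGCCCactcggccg
Col18a1, upstream promoter (chr10:77166531-77166780, minus strand): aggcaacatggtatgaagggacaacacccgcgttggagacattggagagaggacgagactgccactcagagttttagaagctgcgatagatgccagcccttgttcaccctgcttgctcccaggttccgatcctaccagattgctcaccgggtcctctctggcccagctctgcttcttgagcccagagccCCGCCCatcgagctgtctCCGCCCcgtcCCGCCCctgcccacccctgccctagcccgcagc
Col18a1, downstream promoter (chr10:77113706-77113955, minus strand): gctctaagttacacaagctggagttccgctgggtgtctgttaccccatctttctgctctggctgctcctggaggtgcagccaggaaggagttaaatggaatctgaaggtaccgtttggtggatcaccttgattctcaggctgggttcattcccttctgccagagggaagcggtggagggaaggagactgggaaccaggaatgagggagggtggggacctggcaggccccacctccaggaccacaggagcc

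The first 3 windows held 4, 4 and 3 GC boxes and the downstream Col18a1 window held none. GGGCGG was present in 32.74% of all 32851 RefSeq windows of this length and in 24 of the 44 windows of the 40 chains that the table holds. The E-boxes CATGTG and CACGTG and the motif TAATCC, also searched on both strands and neither part of GGGCGG nor holding it, were in none of the 4 windows shown and in 12.25%, 6.02% and 6.25% of all windows.

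Fibrillar collagens were led by Col2a1, the main collagen of cartilage and vitreous. It was at 80.0, 63.7 and 44.2 CPM in the controls and at 52.7, 76.4 and 65.9 CPM with Tppp3 AAV2. The libraries of each group were spread over almost the whole range, with a log2 fold change of 0.05 ± 0.270 (SE) and an edgeR adjusted p of 0.983. Col27a1, Col11a2 and Col11a1 came next in the class. Col27a1, a cartilage fibrillar chain, was at 35.4, 49.4 and 37.3 CPM in the controls and at 37.5, 38.0 and 38.5 CPM with Tppp3 AAV2 (-0.10, adjusted p = 0.883 in edgeR's test). Only control replicate 2 stood away from the others.

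Col11a1 and Col11a2, minor chains that set the width of collagen II fibrils, overlapped between the groups. Col11a1 was at 32.4, 23.6 and 24.2 CPM in the controls and at 25.5, 27.6 and 30.1 CPM with Tppp3 AAV2 (log2 fold change 0.06, edgeR adjusted p = 0.950). Col11a2 was at 27.1, 36.0 and 30.3 CPM in the controls and at 29.2, 31.1 and 32.9 CPM with Tppp3 AAV2 (-0.01, edgeR adjusted p = 0.993). Col5a1, of the collagen V that starts fibrils, spanned 21.9 to 27.6 CPM and Col5a3 7.83 to 12.7 CPM over the 6 libraries.

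Collagen I, the fiber protein of sclera and skin, was low in these libraries, and its partner chains did not follow each other. Col1a2 was at 10.1, 4.36 and 4.07 CPM in control replicates 1, 2 and 3, and at 13.0, 10.2 and 9.35 CPM in Tppp3 replicates 1, 2 and 3. Control replicate 1 lay among the Tppp3 libraries and the other controls below all of them. The log2 fold change was 0.83 ± 0.367 (SE) with an unadjusted p of 0.0646 and an adjusted p of 0.717 in edgeR's test. Without control replicate 1 it was 1.36 with an adjusted p of 0.0719. With the pigment epithelium covariate it was 0.54 ± 0.221 (SE, edgeR adjusted p = 0.618), and with the fibroblast markers as covariate it was -0.024 (edgeR adjusted p = 0.996).

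Col1a1, which supplies the more abundant chain of the collagen I helix, was at 3.36, 3.32 and 3.52 CPM in the controls and at 2.90, 5.95 and 2.85 CPM with Tppp3 AAV2. Tppp3 replicate 2 alone was high, and the other two were below every control (log2 fold change 0.20 ± 0.300, SE; edgeR adjusted p = 0.921). Per kb of exon, Col1a2 exceeded Col1a1 in every library, by 1.28 to 4.98 times. The lowest ratio was in control replicate 3 and the highest in Tppp3 replicate 1.

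Col3a1 and Col5a2, known from soft connective tissue and vessel walls, were also low. Col5a2 was at 5.57, 2.46 and 8.13 CPM in the controls and at 1.73, 2.66 and 2.85 CPM with Tppp3 AAV2. Control replicate 2 lay within the Tppp3 range and the other two controls above it. The log2 fold change was -1.13 ± 0.414 (SE), the largest in size of the 51 tested chains, with an unadjusted p of 0.0246 and an adjusted p of 0.653 in edgeR's test.

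Col3a1 was at 3.45, 1.66 and 4.52 CPM in the controls and at 1.22, 3.34 and 1.76 CPM with Tppp3 AAV2 (log2 fold change -0.58, edgeR adjusted p = 0.824). Control replicate 3 was the highest library for both Col3a1 and Col5a2. Col24a1, a fibrillar chain of developing bone and eye, was at 4.33, 6.88 and 6.06 CPM in the controls and at 5.59, 7.71 and 7.12 CPM with Tppp3 AAV2 (0.23, adjusted p = 0.841 in the same test), with overlapping groups. Of the 10 fibroblast markers 6 were tested, with 0 at an unadjusted p under 0.05 and a median log2 fold change of 0.11. Sums over all 10 were 138 to 181 CPM in the controls and 163 to 202 CPM with Tppp3 AAV2. Most of each sum was Thy1, also a marker of retinal ganglion cells. It was at 106 to 121 CPM in the controls and at 112 to 119 CPM with Tppp3 AAV2. Among the defining markers of that list, Lum had at most 0.0615 CPM and Dpt at most 0.0902 CPM, both listed at 0 in at least 1 library. Fbln1, a matrix glycoprotein also found in basement membranes, was at 52.2, 1.72 and 1.99 CPM in the controls and at 60.1, 27.2 and 58.2 CPM with Tppp3 AAV2. Ogn, a small matrix proteoglycan, was at 2.83, 0.430 and 0.452 CPM in the controls and at 3.51, 1.71 and 2.80 CPM with Tppp3 AAV2. These 2 of the 10 fibroblast genes were highest in control replicate 1 and Tppp3 replicates 1 and 3, the libraries that were also high for Col8a2, Col18a1 and the pigment epithelium markers. For Col1a2, control replicate 1 and all Tppp3 libraries were above control replicates 2 and 3, as for both genes. Their part in the values of the chains was not tested.

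Among the other collagens, 2 chains stood out by p. Col20a1, a FACIT (a collagen that attaches to the surface of fibrils), was at 32.2, 31.7 and 25.5 CPM in control replicates 1, 2 and 3, and at 24.9, 20.8 and 24.2 CPM in Tppp3 replicates 1, 2 and 3. All Tppp3 libraries were below all controls, with control replicate 3 close to Tppp3 replicate 1. The means of 29.8 ± 3.74 and 23.3 ± 2.22 CPM (SD, n = 3 per group) gave a log2 fold change of -0.36 ± 0.108 (SE), an unadjusted p of 0.00696, the smallest of the chains, and an adjusted p of 0.639 in edgeR's test.

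Col23a1, a transmembrane collagen whose ectodomain can be shed, was at 96.9, 92.5 and 90.5 CPM in the controls and at 105.9, 101.0 and 104.0 CPM with Tppp3 AAV2. All Tppp3 libraries were above all controls. The means were 93.3 ± 3.28 and 103.6 ± 2.49 CPM (SD, n = 3 per group), a log2 fold change of 0.15 ± 0.051 (SE) with an unadjusted p of 0.0129 and an adjusted p of 0.648 in edgeR's test. Groups without overlap were thus found for 1 chain higher, Col23a1, and 2 lower, Lamb3 and Col20a1, where the shares among all tested genes were 6.92% higher and 7.02% lower. With 51 chains these counts, 1.96% and 3.92%, were below those shares.

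Col25a1, a transmembrane collagen found in neurons, was at 21.3, 22.9 and 20.8 CPM in the controls and at 22.2, 29.3 and 23.3 CPM with Tppp3 AAV2 (log2 fold change 0.20 ± 0.111, SE; edgeR adjusted p = 0.756). Tppp3 replicate 2 was the highest, and Tppp3 replicate 1 lay within the control range. Col19a1, a FACIT made by some neurons, was at 3.71, 3.56 and 2.89 CPM in the controls and at 1.27, 1.89 and 2.99 CPM with Tppp3 AAV2. Tppp3 replicate 3 lay just above control replicate 3 (-0.72 ± 0.318, SE; unadjusted p = 0.0440 and adjusted p = 0.684 in edgeR's test). Col22a1, a FACIT of tissue junctions, spanned 2.98 to 5.47 CPM in the controls and 1.85 to 3.61 CPM with Tppp3 AAV2.

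Collagen VI, the beaded filament that links basement membranes to the matrix around them, held the chain of highest level in the whole set. Col6a1 was at 116, 121 and 116 CPM in the controls and at 119, 132 and 119 CPM with Tppp3 AAV2 (log2 fold change 0.07 ± 0.055, SE; edgeR adjusted p = 0.810). Its partner Col6a2 was at 21.7, 15.7 and 16.2 CPM in the controls and at 18.5, 17.2 and 16.3 CPM with Tppp3 AAV2 (-0.04, edgeR adjusted p = 0.971). In both, the groups overlapped.

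Col6a3, the large chain of the classical collagen VI helix, was at 0.884, 1.11 and 0.271 CPM in the controls and at 0.762, 0.857 and 1.33 CPM with Tppp3 AAV2, from 3 to 28 counts per library (log2 fold change 0.34, edgeR adjusted p = 0.918). Per kb of exon, Col6a1 exceeded Col6a2 by 10.2 ± 1.33 times and Col6a3 by at least 238 times in each library (SD over 6 libraries). Col6a4 and Col6a6, chains that resemble Col6a3, were at 10.8 to 16.1 and 5.35 to 7.59 CPM, so both were above Col6a3 in every library.

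Collagen IX, a FACIT on the collagen II fibrils of vitreous and cartilage, was led by Col9a1. It was at 72.3, 56.9 and 43.7 CPM in the controls and at 53.9, 51.1 and 79.6 CPM with Tppp3 AAV2, with overlapping groups (log2 fold change 0.09, edgeR adjusted p = 0.967). Per kb of exon, Col9a1 was 3.26 ± 0.535 times the level of Col9a2, and Col9a3 was 1.04 ± 0.222 times that level (SD over 6 libraries). Col7a1, of the anchoring fibrils under epithelia, was at 45.0, 49.3 and 39.0 CPM in the controls and at 38.6, 39.2 and 42.9 CPM with Tppp3 AAV2 (-0.15 ± 0.088, SE; edgeR adjusted p = 0.769). Control replicate 3 fell among the Tppp3 libraries. Col12a1 spanned 19.9 to 24.4 CPM, Col16a1 2.94 to 4.22 CPM, Col26a1 2.95 to 4.43 CPM and Col13a1 0.904 to 2.12 CPM over the 6 libraries.

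Ranked per kb of exon over the 6 libraries, Col6a1 was highest at 29.4 ± 1.49, followed by Col23a1 at 17.4 ± 1.10, Col9a1 at 14.5 ± 3.32 and Col2a1 at 12.5 ± 2.67 CPM per kb (SD over 6 libraries). Col6a1 was above Col23a1 in every library. The range of Col9a1 overlapped those of Col23a1 and Col2a1, while Col23a1 lay above Col2a1 without overlap, at lowest and highest values of 15.989 and 15.674 CPM per kb. Col4a2 and Col4a1 came next at 9.42 ± 0.652 and 9.30 ± 0.646 CPM per kb and did not differ beyond their spread. Col18a1 ranged from 4.01 to 11.9 CPM per kb.

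**Figure D5:**
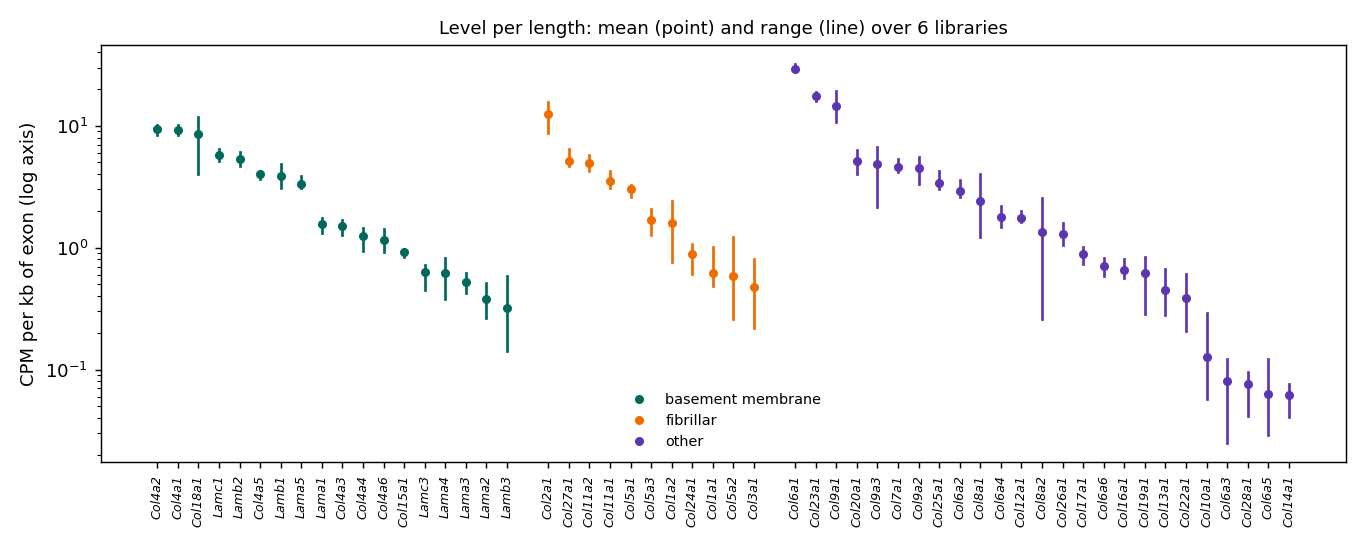
Level of the chains in CPM per kb of exon on a log axis, as the mean (point) and range (line) over 6 libraries, ordered within the basement membrane, fibrillar and other classes. Col6a1 leads at 29.4, Col2a1 leads the fibrillar chains at 12.5 and Col4a2 the basement membrane chains at 9.42 CPM per kb, while Col8a2 and Col18a1 have long lines.

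Genes that fold, trim, join or bind the chains were taken from companion lists, and 0 of their members passed an adjusted p of 0.05 in edgeR's test with its filter on low counts. With no filter Itgb4 passed, as given above. These lists too were chosen with earlier results of these data known, so their shares are no test of a set. Among all tested genes, 3.67% were higher and 3.55% lower at an unadjusted p under 0.05, and 6.92% and 7.02% had groups without overlap. Of the 21 genes for collagen synthesis and folding, 2 were higher and 2 lower at an unadjusted p under 0.05, 9.52% in each direction, with a median log2 fold change of 0.06. P4ha2 and P4ha1, the catalytic subunits of the prolyl hydroxylases that make the helix stable, had the smallest p. P4ha2 was at 14.2, 12.8 and 14.9 CPM in the controls and at 17.4, 17.2 and 17.6 CPM with Tppp3 AAV2 (0.32, adjusted p = 0.639 in edgeR's test). P4ha1 was at 60.4, 71.5 and 72.8 CPM in the controls and at 82.6, 74.0 and 82.9 CPM with Tppp3 AAV2 (0.23, adjusted p = 0.648 in the same test). Both were higher in all 3 Tppp3 libraries than in any control. The 2 lower genes, named because they complete the count, were P4hb and Ppib. P4hb, the subunit that joins P4ha1 or P4ha2 in the same enzyme, was at 198, 199 and 203 CPM in the controls and at 185, 183 and 192 CPM with Tppp3 AAV2 (-0.10, adjusted p = 0.688 in edgeR's test). Ppib, a prolyl isomerase of collagen folding, was at 49.2, 47.3 and 55.4 CPM in the controls and at 46.9, 46.2 and 40.7 CPM with Tppp3 AAV2 (-0.18, edgeR adjusted p = 0.684). Both were lower in all 3 Tppp3 libraries than in any control.

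Of the 14 tested genes for collagen maturation and crosslinking, 1 was higher (7.14%) and 0 lower at an unadjusted p under 0.05, with a median of -0.01. Pcolce2, an enhancer of procollagen trimming, was at 7.34, 8.30 and 7.59 CPM in the controls and at 10.3, 11.005 and 8.97 CPM with Tppp3 AAV2 (log2 fold change 0.38, edgeR adjusted p = 0.648). Loxl4, a lysyl oxidase that crosslinks collagen, stood at -0.57 (edgeR adjusted p = 0.756), with overlapping groups. Of the 15 collagen and laminin receptors, 1 was higher (6.67%) and 2 lower (13.3%) at an unadjusted p under 0.05, with a median of -0.04. The higher one was Ddr2, a collagen receptor kinase, and the lower ones were Itgb4 and Itga3. Itga3, the α chain of a laminin receptor, was at 35.8, 36.5 and 41.6 CPM in the controls and at 33.8, 33.1 and 31.3 CPM with Tppp3 AAV2 (-0.21, edgeR adjusted p = 0.648), so the groups did not overlap, as for 7.02% of all tested genes in this direction.

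Of the 16 other basement membrane genes, which include the nidogens, perlecan and agrin, 0 had an unadjusted p under 0.05, and the median log2 fold change was 0.04. Smoc2 and Tinagl1, matrix proteins of basement membranes, had the smallest p, at log2 fold changes of -0.40 and -0.39 (edgeR adjusted p of 0.813 and 0.827). Nid2, named after its values were seen, was at 6.54, 1.23 and 0.994 CPM in the controls and at 6.91, 1.94 and 4.84 CPM with Tppp3 AAV2. It was thus high in the same 3 libraries as Col8a1, Col8a2 and the pigment epithelium markers.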

How the data were processed

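The authors deposited raw counts for each gene symbol, with no normalization, per the file headers. GRCm39 (mm39) is the build in the submitters' processing notes. The sources used here do not give the aligner, counting tool, annotation or strand setting, and no spike-in row was used. Columns were matched to samples by title, which gave 6 libraries, and 1 column, named as a Tppp3 library, matched no sample and was not used. The fourth control sample was not analysed here, so fits planned for 7 samples were made on 6.

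Of 25655 genes, 14750 passed edgeR's filter by group. Libraries were scaled by TMM and tested with edgeR's two-sided, robust quasi-likelihood test. P-values were adjusted by Benjamini-Hochberg over all tested genes, with a threshold of 0.05. The SE is the size of the fold change divided by the root of F. Exon lengths are merged exons of protein-coding transcripts in GENCODE M21 (GRCm38), another build, so levels per kb are approximate. All 55 chains had a length. The procedure was tested on simulated counts. Pairs within a group differed by 3.99 to 13.4 in chi-square per gene, far above sampling noise.

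Named chains were the 4 of highest CPM and the 2 of smallest p in each direction per class, with partners in a helix, and of companion lists the 2 of smallest p. Members and lists were chosen with earlier results of these data known. A member, counted in the totals, is not reported here. Alternatives were limma's voom, the Wald test and the size factors of DESeq2, other filters, thinning to equal depth, a replicate block, covariates and leaving out each library. Tests ran in R 4.3.3 with DESeq2 1.42.0, limma 3.58.1 and edgeR 4.0.16, and figures in Python 3.11.15 with matplotlib 3.10.9.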

Additional observations from a re-analysis of the deposited data

How the results depend on the processing

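No chain passed the adjusted threshold under any of 15 alternatives, and the 3 class sums, recomputed under the 8 of these that rescale or leave out libraries, moved by less than the spread between replicates. The log2 ratios of the sums without 1 library ranged from -0.022 to 0.13 for basement membrane, -0.067 to 0.072 for fibrillar and -0.0082 to 0.12 for other chains. Chains higher at an unadjusted p under 0.05 numbered 2 with DESeq2's Wald test, limma's voom and the fibroblast covariate, and 3 with the pigment epithelium covariate. Lower chains numbered 3 with DESeq2's Wald test. Without 1 library the counts ranged from 1 to 7 higher and from 1 to 6 lower.

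The replicate block gave 2 higher and 4 lower chains. Same-numbered libraries had deviations correlated at -0.029, 0.051 and -0.26, and not every library correlated best with its own number, so the numbers were not taken to pair them. Under the block Col11a2 turned to 0.0036 (log2 fold change).

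Log2 fold changes changed sign in other settings, among them those of Col1a2 and Col8a2, the highest of the chains. With voom Col6a2 was 0.016 and Lama3 0.044, and thinned to equal depth Col11a2 was 0.011 and Col4a3 -0.0046. With the pigment epithelium covariate Col11a1 was -0.064, Col11a2 0.081, Col2a1 -0.028, Col4a4 0.021, Col8a1 -0.49, Col8a2 -0.40 and Col9a1 -0.15. With the fibroblast covariate Col11a1 was -0.32, Col11a2 0.27, Col18a1 -0.56, Col1a2 -0.024, Col27a1 0.22, Col2a1 -0.22, Col4a4 0.23, Col4a5 -0.084, Col8a1 -1.28, Col8a2 -1.68, Col9a1 -0.40, Col9a3 -0.30 and Loxl4 0.40. Without 1 library the ranges were -0.029 to 0.21 for Col11a1, -0.10 to 0.12 for Col11a2, -0.24 to 0.38 for Col1a1, -0.20 to 0.063 for Col27a1, -0.14 to 0.26 for Col2a1, -0.082 to 0.0905 for Col4a3, -0.30 to 0.0095 for Col4a4, -0.12 to 0.12 for Col6a2, -0.029 to 0.76 for Col6a3, -0.11 to 0.87 for Col8a1, -0.14 to 0.28 for Col9a1, -0.13 to 0.10 for Lama3 and -0.13 to 0.0301 for Lamc1. The cause was not tested. Depth limits the chains with few counts, such as Lamb3 and Col6a3.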
